A study of Rattus norvegicus with 10 samples.

Results

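The 10 genes described here are known from spermatogonia, the diploid germ cells that start spermatogenesis, and were followed through messenger RNA libraries of round spermatids from young and aged Brown Norway rats. The set was Kit, Stra8, Zbtb16, Gfra1, Uchl1, Sall4, Dazl, Dmrt1, Taf4b and Sohlh2, chosen by name. All 10 names matched 1 row each among the 32545 genes in the files. Per the labels, the rats were WT, kept with free access to food and water, and aged 4 to 6 months (young, 5 samples) or 18 to 20 months (aged, 5 samples). Germ cells were sorted by STA-PUT, which separates cells by the speed at which they sediment, and total RNA went into SMARTer mRNA libraries. The question of the series is how age alters the transcripts of these cells. Whether a sample is 1 animal or several is not in the labels. The p-values set group differences against the spread between these samples, which may not be the spread between single animals.

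Spermatogonia sit on the basement membrane of the seminiferous tubule and either renew themselves or differentiate. Renewal depends on GDNF, which Sertoli cells secrete and which spermatogonia sense through GFRA1 and its partner RET, and on the transcription factors ZBTB16 (PLZF) and SALL4. Differentiation is driven by retinoic acid and by KIT, the receptor for KIT ligand, with SOHLH2 among the regulators of the switch, and STRA8 then licenses entry into meiosis. DMRT1 keeps spermatogonia from entering meiosis early, DAZL binds germ cell messenger RNA through spermatocyte stages, TAF4B is a germ cell subunit of the general transcription factor TFIID, and UCHL1 is a ubiquitin hydrolase abundant in spermatogonia and neurons.

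The control regions of 4 of these genes are shown because the results turn on them: Stra8 is a known target of retinoic acid and DMRT1, Dazl and Sohlh2 were low in the same aged libraries, and Kit stood apart in 1 aged library. Each line gives the 250 bases before the annotated start, 5′ to 3′ on the gene's strand, from RefSeq on build GRCr8. Capitals mark matches to the motifs searched on both strands.
Stra8 (chr4:64568330-64568579, plus strand): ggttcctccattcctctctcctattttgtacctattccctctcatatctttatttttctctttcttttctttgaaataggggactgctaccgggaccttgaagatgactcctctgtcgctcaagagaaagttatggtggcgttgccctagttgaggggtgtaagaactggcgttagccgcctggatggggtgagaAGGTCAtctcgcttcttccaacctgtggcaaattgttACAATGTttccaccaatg
Dazl (chr9:18193113-18193362, plus strand): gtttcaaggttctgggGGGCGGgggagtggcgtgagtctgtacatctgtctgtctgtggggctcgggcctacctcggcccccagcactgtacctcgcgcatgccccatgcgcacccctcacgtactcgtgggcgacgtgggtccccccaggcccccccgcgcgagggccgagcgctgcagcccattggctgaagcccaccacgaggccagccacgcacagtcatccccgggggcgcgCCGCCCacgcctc
Sohlh2 (chr2:141512160-141512409, plus strand): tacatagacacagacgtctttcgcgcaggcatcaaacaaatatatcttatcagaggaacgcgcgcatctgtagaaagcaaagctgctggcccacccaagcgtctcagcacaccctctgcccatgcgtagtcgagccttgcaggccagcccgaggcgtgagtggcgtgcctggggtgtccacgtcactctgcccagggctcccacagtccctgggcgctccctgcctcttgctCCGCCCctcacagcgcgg
Kit (chr14:32978813-32979062, minus strand): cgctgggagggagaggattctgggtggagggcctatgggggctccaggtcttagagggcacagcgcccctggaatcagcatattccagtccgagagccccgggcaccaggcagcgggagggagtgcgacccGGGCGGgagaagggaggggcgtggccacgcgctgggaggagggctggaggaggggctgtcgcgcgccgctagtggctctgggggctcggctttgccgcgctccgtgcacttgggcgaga

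The motifs were the GC box GGGCGG, the retinoic acid receptor hexamer AGGTCA, the E-box CACGTG, the DMRT1 core ACATTGT, the CRE TGACGTCA and the TATA box TATAAA. A promoter entry was found for 8 of the 10 genes, all but Zbtb16 and Sall4. The Stra8 window held the retinoic acid receptor hexamer at 55 to 50 bases before the start and the DMRT1 core, on the opposite strand, at 18 to 12 bases before it. It alone of the 8 held either motif. Over all 33469 promoters of the same length, 14.1% held the hexamer and 2.72% the DMRT1 core. The GC box was in 7 of the 8 windows, all but Stra8, against 30.5% of all promoters. The 7 included Dazl, with a copy near each end of its window, Sohlh2 and Kit. G and C made up 71.6% of the Dazl window, 61.6% of Sohlh2 and 70.8% of Kit, but 46.4% of Stra8, where the median of all promoters was 51.2%. The E-box and the CRE were each found in Taf4b alone, and the TATA box in Uchl1 and Taf4b, against 5.59%, 1.59% and 12.9% of all promoters. A match is a stretch of letters and not a measured binding site.

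The libraries carried the transcripts of round spermatids at high levels. The deposited values are FPKM, fragment numbers scaled to gene length and to 1 factor per library, from 14488222 to 18203223 recovered fragments per library. That factor tracked the recovered total, both being lowest in young replicate 3 and highest in aged replicate 1, but not in exact proportion. In young replicate 1, 1 FPKM per kilobase was 16.8842 fragments, of 17006228 in all, and in aged replicate 1 18.5656, of 18203223. Median-of-ratios scaling, which sets libraries to the same median gene, left the fits unchanged, so the values were already on that scale. The round spermatid list had 24 of 25 genes at a mean of at least 1 FPKM, with a median of 248.9 FPKM. The mean of Prm1, a protamine of the sperm nucleus, was 12150 ± 3121 FPKM among young libraries and 10130 ± 1373 FPKM among aged ones (SD, n = 5). Tnp2, a transition protein, was at 6022 ± 861 and 5616 ± 380 FPKM. Klk1c2, a kallikrein and the lowest of that list, was at 0 in 9 libraries. Summed levels of somatic testis cell genes reached higher in aged than in young libraries, without a test of the sums. The summed level of the Leydig cell list was 7.47 to 12.3 FPKM among young and 14.4 to 128 FPKM among aged libraries, highest in aged replicate 2 and next in aged replicate 1 (58.6 FPKM). Sums for Sertoli cell genes were 39.0 to 50.8 and 44.0 to 164 FPKM, for peritubular genes 78.0 to 118 and 118.1 to 309 FPKM, for macrophage genes 33.6 to 66.8 and 52.8 to 423 FPKM, and for endothelial genes 3.34 to 5.14 and 5.00 to 10.9 FPKM.

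All 10 spermatogonial genes were detected in every library, at levels far apart from one another. Uchl1 led with a mean of 35.8 FPKM over the 10 libraries, followed by Dazl (9.41 FPKM), Gfra1 (5.09 FPKM), Dmrt1 (3.01 FPKM), Stra8 (2.14 FPKM), Sohlh2 (1.90 FPKM) and Kit (1.29 FPKM). Taf4b (0.824 FPKM), Zbtb16 (0.451 FPKM) and Sall4 (0.302 FPKM) stayed under a mean of 1 FPKM, the level required for the main test. FPKM is scaled to gene length, so these levels can be set side by side. Uchl1 exceeded Dazl, and Dazl exceeded Gfra1, in all 10 libraries with no overlap of their ranges. All neighbours below these overlapped in range. Stra8 exceeded Sohlh2 in 6 of the 10 libraries and Zbtb16 exceeded Sall4 in 7, so neither pair has an order beyond its spread. The other neighbours kept their order in 8 or 9 libraries. Of the genes with any value above 0, 11.8% had a higher mean than Uchl1 and 68.2% a higher mean than Sall4.

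**Figure D1:**
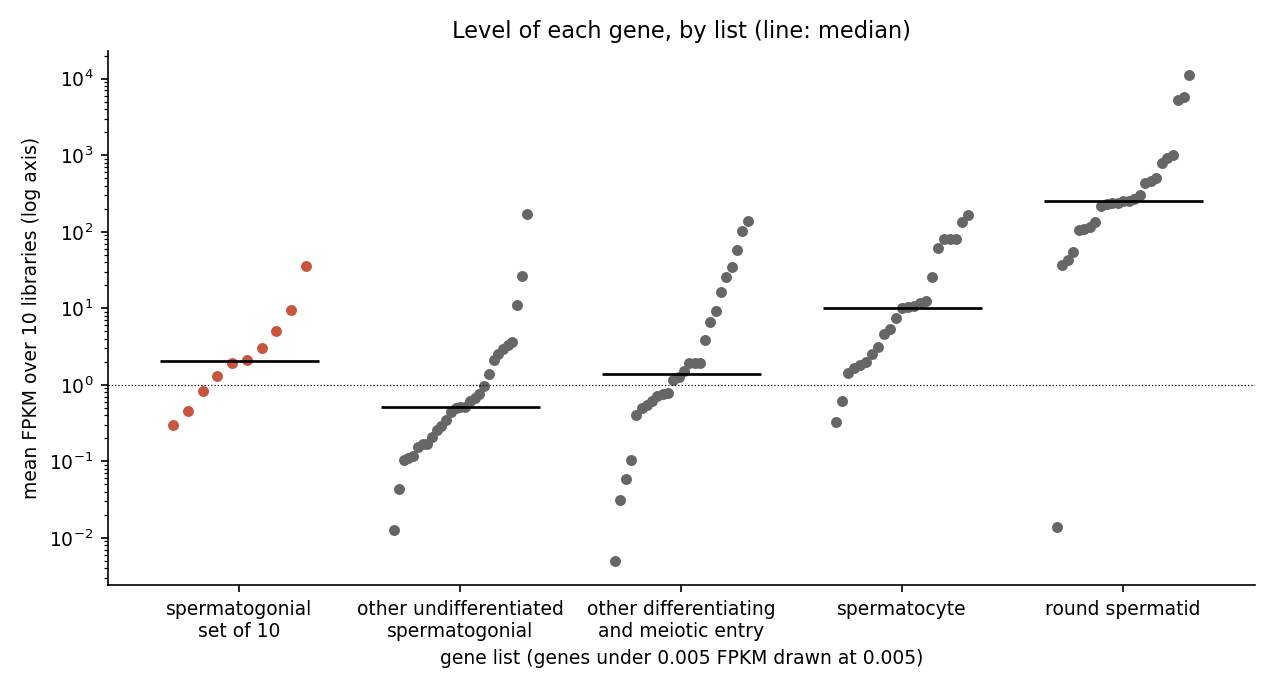
Mean FPKM over the 10 libraries (log axis) of each gene in the set of 10 spermatogonial genes and in 4 germ cell lists, with a line at each median. The set has its median at 2.02 FPKM, between the 0.509 FPKM of the other undifferentiated spermatogonial genes and the 10.1 FPKM of the spermatocyte list, while the round spermatid list lies at 248.9 FPKM.

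In bulk libraries fewer cells of a type and less RNA per cell cannot be told apart, so these levels do not say whether a few spermatogonia or many spermatids hold the transcripts. Other genes of the same stages gave the context. Of 29 other genes of undifferentiated spermatogonia in the files, 9 reached a mean of 1 FPKM. The 2 highest were Ddx4, a germ cell RNA helicase (young 171.7 ± 5.42, aged 168.6 ± 6.88 FPKM; SD, n = 5), and Id4, an inhibitor of helix-loop-helix factors (27.8 ± 4.25 and 25.5 ± 4.94 FPKM). Pdx1 was the lowest, with at most 1 fragment in a library. Of 26 other genes of differentiating spermatogonia and meiotic entry, 15 reached 1 FPKM. They were led by Pcna, the DNA replication clamp (137.6 ± 12.3 and 139.0 ± 11.5 FPKM), and Rec8, a meiotic cohesin (97.5 ± 8.48 and 105.2 ± 3.96 FPKM). Nanog, a pluripotency factor, was at 0 in all 10 libraries.

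Among the receptors, Gfra1 had the narrowest range of the set, its highest value being 1.33 times its lowest. Gfra1 (ENSRNOG00000017438, chromosome 1, 279207586 to 279277339, minus strand; the build of these positions, as of all from the files, is not stated in the labels or headers) stood at 4.51, 5.04, 5.43, 5.02 and 5.90 FPKM in young replicates 1 to 5 and at 5.77, 5.12, 5.00, 4.68 and 4.43 FPKM in aged replicates 1 to 5. The groups overlapped almost fully, with 4 of 5 aged values inside the young range. Its coefficient of variation was 9.95% in young and 10.2% in aged samples. These values rest on 215 to 319 fragments per library, and the SD was 1.56 and 1.62 times that expected from counting alone. Ret, the co-receptor, averaged 3.36 ± 0.429 (young) and 3.21 ± 0.513 FPKM (aged), and Gdnf, the ligand, 0.870 ± 0.363 and 0.753 ± 0.464 FPKM. Ret, Gdnf, Kitlg and Sohlh1 are named as partners of the set after their values were seen.

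Kit was high in a single aged library. Kit (ENSRNOG00000002227, chromosome 14, 35072108 to 35149610, minus strand) stood at 1.19, 0.788, 0.963, 1.03 and 1.21 FPKM in young replicates 1 to 5. In aged replicates 1 to 5 it stood at 1.33, 3.001, 0.898, 1.19 and 1.28 FPKM. Aged replicate 2 lay at 2.33 times the mean of the 10 libraries, from 259 fragments against 73 to 130 elsewhere. The other aged libraries averaged 1.17 ± 0.194 FPKM (SD, n = 4) against 1.04 ± 0.173 FPKM in young (SD, n = 5). The aged SD was 6.34 times that expected from counting.

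Kit is made by Leydig cells and mast cells as well as by differentiating spermatogonia, so their markers are given beside it. Insl3, a Leydig cell hormone, stood at 3.98, 2.77, 3.45, 2.31 and 4.03 FPKM in young replicates 1 to 5 and at 37.3, 86.4, 5.81, 9.60 and 9.29 FPKM in aged replicates 1 to 5. Cyp17a1, an enzyme of androgen synthesis, was likewise highest in aged replicate 2 (25.7 FPKM), with 11.4 FPKM in aged replicate 1 and 1.83 to 5.21 FPKM in the other aged libraries. Hsd3b1, a steroid dehydrogenase and the lowest Leydig cell gene, reached 0.320 FPKM in aged replicate 2. Aged replicate 2, with the highest Kit value, had the highest value for 8 of the 9 Leydig cell genes; the exception, Ptgds, a prostaglandin synthase, was highest in young replicate 2 (2.60 FPKM, against 1.78 FPKM in aged replicate 2). Aged replicate 1, second for Kit, was second for 5 of the 9. Its Kit value of 1.33 FPKM was above the 1.28 FPKM of aged replicate 5 by less than the counting SD of 0.131 FPKM. Of the mast cell genes, Fcer1a, a chain of the IgE receptor, was at 0 in all 10 libraries. Of the other mast cell genes Cpa3, a peptidase, was at 0 in 6 libraries including aged replicate 2, and Tpsb2, a tryptase, was at 0.134 FPKM there and 0.143 to 0.417 FPKM elsewhere. Ptgds, Cpa3 and Tpsb2 are named after their values were seen. The list of mast and other blood cells summed to 0.749 to 2.49 FPKM in young and to 2.34 to 8.79 FPKM in aged libraries, highest in aged replicate 2. Its most abundant genes were Hbb, a haemoglobin chain, at 6.56 FPKM in that library, and Cd79a, a B cell receptor subunit, at 1.63 FPKM there and at most 0.372 FPKM elsewhere. The high level in aged replicate 2 was not particular to Leydig cell genes. Relative to each gene's mean over the 10 libraries, their median tested gene was at 2.51 there. The same median was 2.72 for peritubular cells, 5.01 for macrophages and 1.54 for Sertoli cells, each the highest of the 10 libraries. The part of any of these cells in the Kit value was not tested. Kitlg, the ligand of KIT that Sertoli cells make, had its highest value in aged replicate 2 as well (0.840 FPKM), where the other 9 libraries spanned 0.105 to 0.421 FPKM. Haploid germ cells are known to make a truncated Kit transcript from an internal promoter. The values are per gene and do not separate it from the full one.

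**Figure D2:**
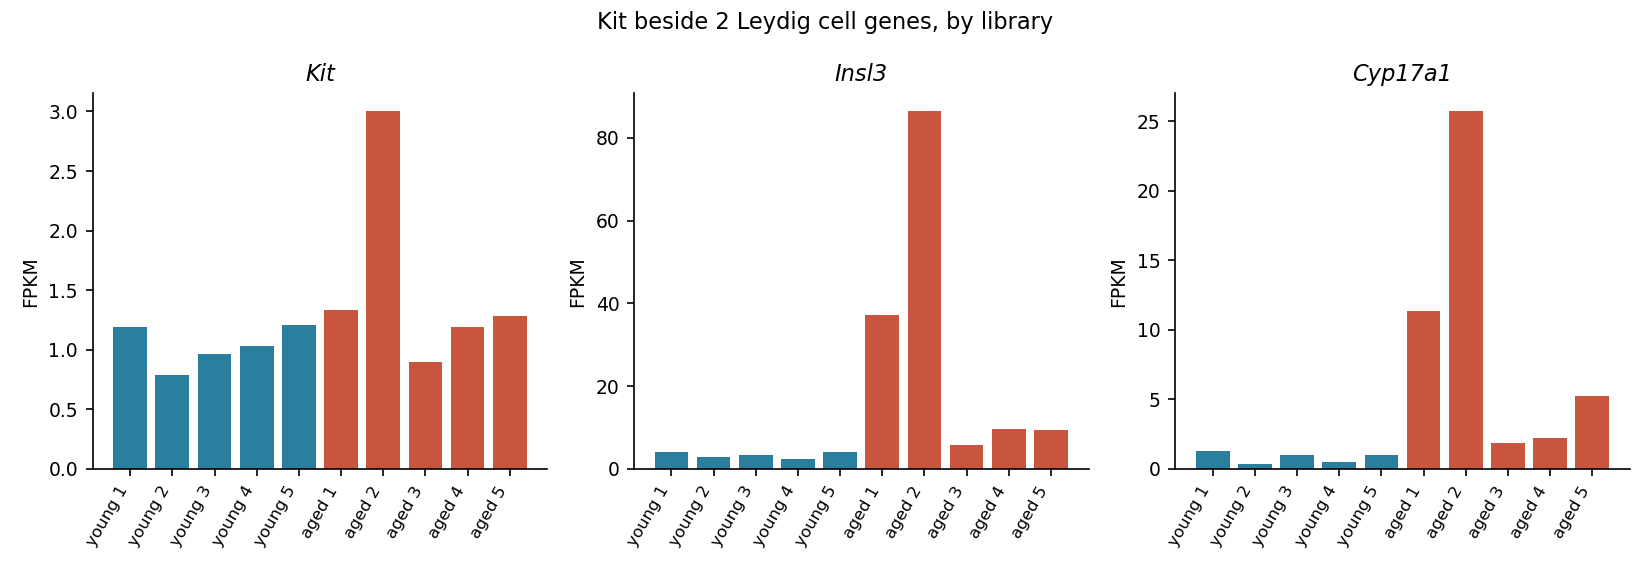
Bars give the FPKM of Kit and of the Leydig cell genes Insl3 and Cyp17a1 in each of the 5 young and 5 aged libraries, on separate linear axes from 0. Aged replicate 2 is the highest library in each panel (3.001, 86.4 and 25.7 FPKM) and aged replicate 1 the next (1.33, 37.3 and 11.4 FPKM). For Kit, aged replicate 5 (1.28 FPKM) and young replicate 5 (1.21 FPKM) lie close to aged replicate 1.

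Stra8 and Dmrt1, both tied to the retinoic acid step, varied widely within each age group. Stra8 (ENSRNOG00000010573, chromosome 4, 62457694 to 62473360, plus strand), whose promoter window above holds the retinoic acid receptor hexamer, stood at 2.10, 1.45, 2.62, 1.31 and 2.54 FPKM in young replicates 1 to 5 and at 2.16, 1.22, 2.10, 2.82 and 3.08 FPKM in aged replicates 1 to 5. It was counted from only 22 to 55 fragments per library, and its SD was 1.78 times the counting error in young and 2.07 times in aged samples. Aged replicates 4 and 5 were above all young values and aged replicate 2 below them, so the groups overlapped from both sides.

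Dmrt1 (ENSRNOG00000016075, chromosome 1, 243477493 to 243582629, plus strand) stood at 3.19, 2.59, 1.80, 2.65 and 3.53 FPKM in young replicates 1 to 5 and at 2.76, 2.31, 2.92, 4.88 and 3.46 FPKM in aged replicates 1 to 5. Only aged replicate 4 left the young range. DMRT1 is also made by Sertoli cells, whose part in these values was not tested. Their list summed to 164 FPKM in aged replicate 2, mostly from Clu, a secreted chaperone (75.9 FPKM), and Vim, an intermediate filament (39.4 FPKM). The list was uneven there, its median tested gene being at 1.54 times its mean over the 10 libraries. Cldn11 was also highest in that library (9.66 FPKM), but Defb36 and Inha were not (4.72 and 1.11 FPKM). These 3 genes are named after their values were seen. In that library Dmrt1 had its lowest aged value, 2.31 FPKM. Of the retinoid genes and ligands that act on spermatogonia, 8 of 20 reached 1 FPKM. Aldh1a2, an enzyme of retinoic acid synthesis, averaged 69.9 ± 4.70 (young) and 67.8 ± 3.69 FPKM (aged; SD, n = 5), and Rara, a retinoic acid receptor, 16.4 ± 0.764 and 16.2 ± 1.15 FPKM. Fgf8, the lowest, was at 0 in 9 libraries.

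Dazl and Sohlh2 were low in the same 3 aged libraries. Dazl (ENSRNOG00000023474, chromosome 9, 12633990 to 12650938, plus strand) stood at 12.9, 9.05, 10.4, 8.34 and 9.18 FPKM in young replicates 1 to 5. In aged replicates 1 to 5 it stood at 6.34, 7.46, 6.09, 12.8 and 11.5 FPKM. Aged replicates 1, 2 and 3 were below every young library and aged replicates 4 and 5 inside the young range. With 305 to 628 fragments per library, the aged SD of 3.11 FPKM was 7.31 times the counting error. Dazl had the largest such ratio of the set.

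Sohlh2 (ENSRNOG00000038091, chromosome 2, 144591755 to 144614064, plus strand) stood at 2.46, 1.90, 2.34, 1.605 and 2.13 FPKM in young replicates 1 to 5. In aged replicates 1 to 5 it stood at 0.991, 1.38, 1.46, 2.60 and 2.18 FPKM. Again aged replicates 1 to 3 lay below every young library, and aged replicate 4 was the highest of all 10. Its partner Sohlh1 did not share the pattern: it stood at 1.96, 2.10 and 1.45 FPKM in aged replicates 1 to 3, inside the young range of 1.27 to 2.23 FPKM. Sohlh1 rested on 24 to 43 fragments per library, against 43 to 102 for Sohlh2. A U6 RNA gene annotated inside Sohlh2 on the other strand averaged 0.0574 FPKM, and no other gene of the set overlapped an annotated gene.

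The median gene of meiotic prophase was also lowest in these libraries, but by summed level only aged replicate 1 lay below all the young libraries. Relative to each gene's mean over the 10 libraries, the median of the 21 spermatocyte genes tested was 0.861, 0.887 and 0.892 in aged replicates 1 to 3. In the other 7 libraries it was 0.964 to 1.18, with 1.05 and 0.991 in aged replicates 4 and 5. The summed level of the list was 628.5, 683.9 and 708.6 FPKM in aged replicates 1 to 3, 680.0 FPKM in young replicate 5 and 722.0 to 792.0 FPKM in the other 6 libraries. For Dazl the same ratio was 0.674, 0.793 and 0.648 in aged replicates 1 to 3 and for Sohlh2 0.520, 0.726 and 0.764. The median ratio of the round spermatid list stayed between 0.924 and 1.04 in every library, while its sum ran from 24910 FPKM in young replicate 2 to 37570 FPKM in young replicate 5. All 3 of these aged replicates lay below the lowest young value for 2 of the 7 tested genes of the set, for 8 of the 21 spermatocyte genes and for 4.43% of the 12985 genes tested, a pattern chosen after its values were seen. The most abundant spermatocyte genes were Ccna1, a meiotic cyclin (young 168.3 ± 5.28, aged 166.8 ± 12.2 FPKM), and Stag3, a meiotic cohesin (137.7 ± 4.09 and 133.7 ± 3.62 FPKM; SD, n = 5). Prdm9, which places meiotic breaks, was the lowest of the list at 0.267 ± 0.106 and 0.379 ± 0.144 FPKM. The part of spermatocytes in the Dazl and Sohlh2 values was not tested.

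**Figure D3:**
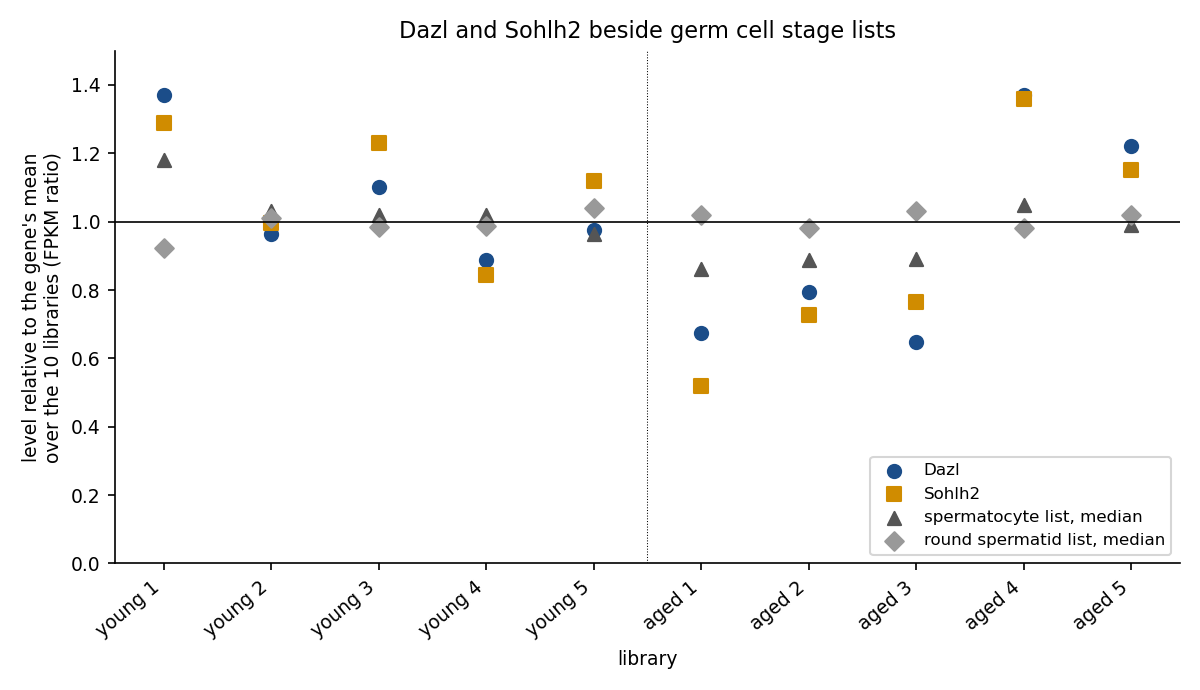
Level of Dazl, of Sohlh2 and of the median gene of the spermatocyte and round spermatid lists in each library, as a ratio to the gene's own mean over the 10 libraries. Aged replicates 1 to 3 hold the lowest values of Dazl, Sohlh2 and the spermatocyte median (0.861 to 0.892), while the round spermatid median stays between 0.924 and 1.04.

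Uchl1 was the most abundant gene of the set and had the narrower spread in the aged group. Uchl1 (ENSRNOG00000002343, chromosome 14, 43133218 to 43143973, minus strand) stood at 39.9, 32.3, 29.8, 32.7 and 46.2 FPKM in young replicates 1 to 5 and at 37.9, 32.6, 32.9, 36.4 and 37.3 FPKM in aged replicates 1 to 5. All 5 aged values fell inside the young range. Its coefficient of variation was 18.7% in young and 6.96% in aged samples; the difference in spread was not tested.

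The transcription regulators under 1 FPKM rested on few fragments. Taf4b (ENSRNOG00000026023, chromosome 18, 6207280 to 6318219, plus strand) stood at 1.17, 0.703, 0.985, 0.616 and 0.982 FPKM in young replicates 1 to 5 and at 0.857, 0.662, 0.626, 0.947 and 0.698 FPKM in aged replicates 1 to 5, from 39 to 78 fragments. All 5 aged values lay inside the young range. Zbtb16 (ENSRNOG00000029980, chromosome 8, 52985313 to 53146953, minus strand) stood at 0.361, 0.303, 0.626, 0.143 and 0.494 FPKM in young replicates 1 to 5 and at 0.698, 0.697, 0.198, 0.567 and 0.421 FPKM in aged replicates 1 to 5, from 6 to 34 fragments. The 2 highest values, both above the young range, were in aged replicates 1 and 2, the libraries with the highest summed Leydig cell, peritubular and macrophage levels. Zbtb16 is also active in somatic cells, and their part in these values was not tested.

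Sall4 (ENSRNOG00000050035, chromosome 3, 165520392 to 165537940, minus strand) had the lowest mean of the set and the fewest fragments, 160 over all 10 libraries. It stood at 0.258, 0.301, 0.256, 0.292 and 0.504 FPKM in young replicates 1 to 5 and at 0.268, 0.209, 0.233, 0.408 and 0.287 FPKM in aged replicates 1 to 5. Its SD was 1.31 and 1.08 times the counting error, so at this depth the spread of Sall4 can hardly be separated from counting. In a list of genes for partners and relatives of these proteins and for ligands of the relatives, called partner genes here, 14 of 19 reached 1 FPKM. A place on the list does not show contact with a protein of the set. The most abundant were Tcfl5, a testis transcription factor (young 184.4 ± 8.85, aged 179.9 ± 15.5 FPKM; SD, n = 5), and Tbp, the TATA-binding protein of TFIID (118.4 ± 5.51 and 120.9 ± 3.28 FPKM). Sall1, a relative of Sall4, was the lowest with at most 9 fragments.

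**Figure D4:**
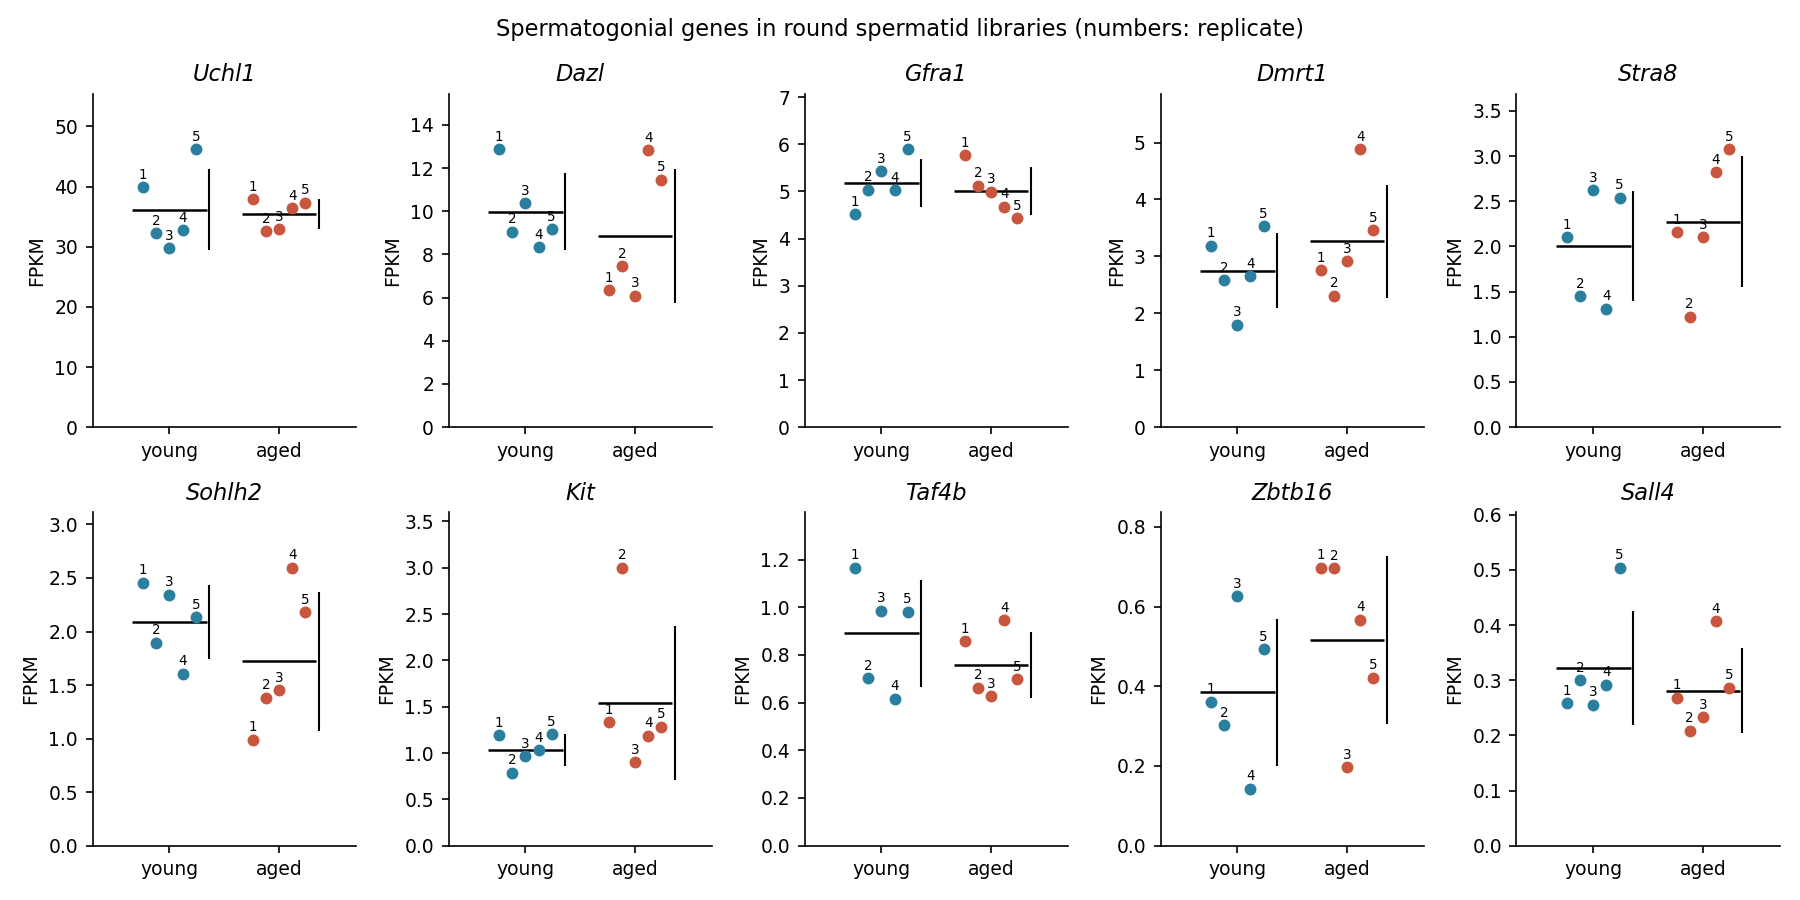
FPKM of the 10 spermatogonial genes in each young (blue) and aged (red) library, numbered by replicate, on linear axes from 0; horizontal lines are means and vertical lines ± 1 SD (n = 5). The groups overlap for all 10 genes, with Kit high in aged replicate 2 and Dazl and Sohlh2 low in aged replicates 1 to 3.

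None of the 10 genes passed the test between aged and young samples. The test was limma on log2(FPKM + 1) over the 12985 genes that averaged 1 FPKM or more, adjusted by Benjamini-Hochberg, and the threshold was 0.05. It called 0 of the 7 tested genes of the set and 0% of all genes. At an unadjusted p under 0.05 there were also 0 of 7, where 11.9% of all tested genes fell under it. Those were 719 higher (5.54%) and 825 lower (6.35%) in aged samples, or 851 and 542 after rescaling each library to the same sum of FPKM. With voom on the recovered fragments 0 genes passed as well. Taf4b, Zbtb16 and Sall4 were tested among the 20001 genes that averaged 0.1 FPKM or more; 0 of the 3 had an unadjusted p under 0.05, against 10.9% of those genes. Groups that did not overlap were found for 0 of the 7 and for 2.6% of all genes tested.

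The fitted differences, aged minus young on the log2(FPKM + 1) scale, were positive for 4 genes and negative for 6 (4 of the 7 tested at 1 FPKM, against 54.5% of all genes), with a median of -0.03 over the 10. Over the 7 tested at 1 FPKM it was -0.014, against -0.015 over all 12985 genes. This scale understates the change of low genes. Kit had the largest positive value at 0.27 (SE 0.18, 95% interval -0.12 to 0.66, limma adjusted p = 0.530). Without aged replicate 2 it was 0.09 and without aged replicates 1 and 2 it was 0.06, while voom gave 0.44. The difference was 0.18 for Dmrt1 (interval -0.19 to 0.54), 0.13 for Zbtb16 (-0.14 to 0.40) and 0.12 for Stra8 (-0.29 to 0.52). Single libraries moved these too. Dmrt1 ranged from 0.05 without aged replicate 4 to 0.26 without aged replicate 2, Zbtb16 from 0.06 without young replicate 4 to 0.21 without aged replicate 3, and Stra8 from 0.03 without young replicate 4 to 0.25 without aged replicate 2. Zbtb16 was at 0.44 with voom, which adds no pseudocount of 1 FPKM.

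On the negative side stood Sohlh2 at -0.21 (SE 0.16, interval -0.56 to 0.14, limma adjusted p = 0.581) and Dazl at -0.20 (SE 0.19, interval -0.62 to 0.23, limma adjusted p = 0.666). Group means were 2.09 ± 0.344 and 1.72 ± 0.651 FPKM for Sohlh2 and 9.97 ± 1.79 and 8.84 ± 3.11 FPKM for Dazl (young and aged, SD, n = 5). Without aged replicates 1 and 2 the values were -0.01 for Sohlh2 and -0.02 for Dazl, and without aged replicate 4 they were -0.32 and -0.34. Sohlh2 was at -0.10 without aged replicate 1 and Dazl at -0.09 without aged replicate 3. Taf4b was at -0.10 (interval -0.32 to 0.12), Sall4 at -0.04 (-0.21 to 0.12), Gfra1 at -0.04 (-0.22 to 0.14) and Uchl1 at -0.01 (-0.25 to 0.22). With 1 library left out Taf4b ranged from -0.15 without young replicate 4 to -0.05 without young replicate 1, and Gfra1 from -0.09 without aged replicate 1 to -0.002 without young replicate 5. Voom gave -0.36 for Sohlh2, -0.21 for Taf4b and -0.19 for Sall4. The narrowest of the intervals for the 7 tested genes was that of Gfra1. The intervals of Kit, Stra8, Dmrt1, Sohlh2 and Dazl leave room for differences of over 0.5 on this scale in 1 direction.

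**Figure D5:**
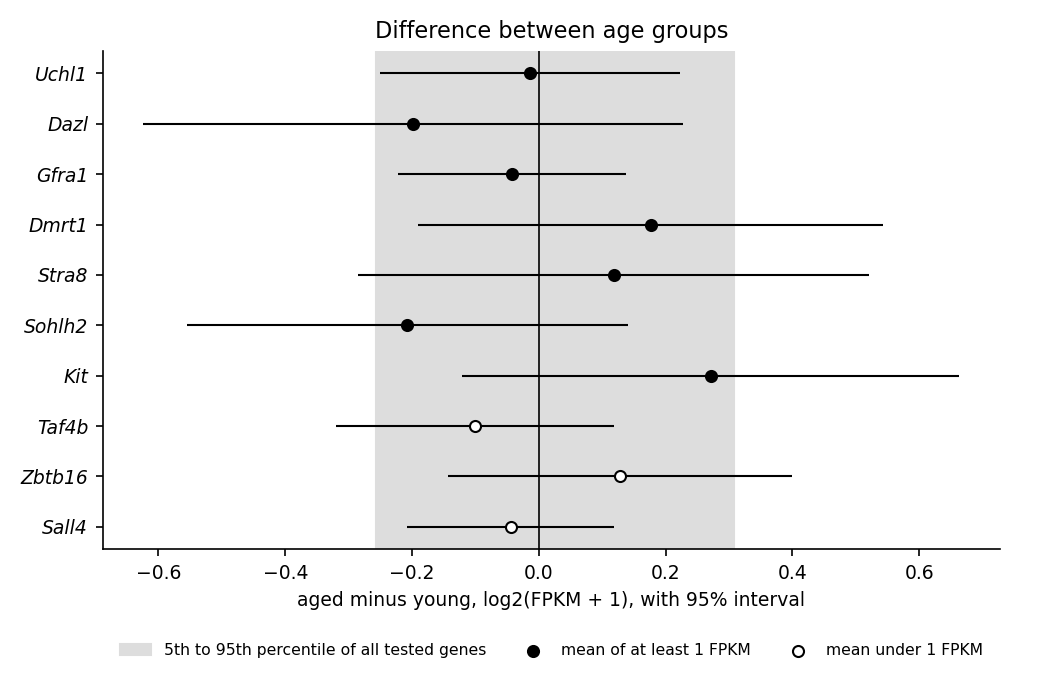
Difference between age groups for each gene (aged minus young, log2(FPKM + 1), points with 95% intervals from limma; open points are genes with a mean under 1 FPKM). All 10 intervals include 0, and every point lies inside the grey band, which spans the 5th to 95th percentile of all tested genes (-0.26 to 0.31).

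The wider lists of the same stages gave no call either. With limma 0 of 9 tested genes of undifferentiated spermatogonia passed, with 5 fitted higher and 4 lower in aged samples and a median of 0.01. Of the higher ones 2 had an unadjusted p under 0.05, Itgb1 and Cd9, named after their values were seen. Both were highest in aged replicate 2, at 10.8 and 7.14 FPKM, against at most 4.09 and 3.61 FPKM elsewhere. For Itgb1 the groups did not overlap, as for 2.6% of all genes tested. Its young values were 1.60 to 2.94 FPKM and its lowest aged value was 2.96 FPKM. For Cd9 they overlapped. For differentiating spermatogonia and meiotic entry 0 of 15 passed, with 7 higher, 8 lower, 2 of the lower ones at an unadjusted p under 0.05, and a median of -0.07. For ligands and retinoid genes 0 of 8 passed (4 higher, 4 lower, median 0.00), and for partner genes 0 of 14 (8 higher, 6 lower, median 0.04), with 1 higher gene each under that unadjusted p. The spermatocyte list had 19 of 21 genes fitted lower, against 54.5% of all tested genes, with a median of -0.14, and 0 passed. Of the lower ones 4 had an unadjusted p under 0.05, against 6.35% of all tested genes on the lower side. The round spermatid list had 14 of 24 fitted higher, 1 of them under that p, and a median of 0.02. Somatic lists lay on the higher side, again with 0 genes passing. Their medians were 0.35 for Sertoli cells (8 of 9 higher), 0.45 for Leydig cells (5 of 5), 0.74 for peritubular cells (12 of 13) and 0.95 for macrophages (12 of 14). At the unadjusted p these lists had 2, 2, 8 and 8 higher genes, against 5.54% of all tested genes on the higher side. The macrophage list also had 2 lower ones. The endothelial list had only 2 tested genes, 1 fitted higher and 1 lower, and the list of mast and other blood cells 1, Hbb, fitted higher; in each the higher gene was under that p.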

How the data were processed

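Messenger RNA of 10 round spermatid samples was measured, 5 young and 5 aged, grouped by the labels. The deposited values are FPKM, 1 file per sample, with gene lengths and positions in the same files; HISAT2 2.0.5 and featureCounts 1.5.0-p3 are listed in the submitters' processing notes, and settings, strand and build are not stated there or in the files. Each FPKM value times its gene length was a whole multiple of 1 step per library (100% of values above 0, tolerance 0.001), which gave back 14488222 to 18203223 fragments per library.

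Groups were compared with limma 3.58.1 (R 4.3.3; lmFit, eBayes with a trend), two-sided, on log2(FPKM + 1) for genes averaging 1 FPKM or more, or 0.1 FPKM or more for lower genes of the set, with Benjamini-Hochberg adjustment over all genes tested. It was tested on simulated data, with changes placed only in genes averaging at least 5 FPKM and with 1 setting of spread. That check does not cover the genes of the set below 5 FPKM. The SD expected from counting is the mean FPKM divided by the square root of the mean fragments, and covers counting error only. Alternatives were other pseudocounts, filters and scalings, robust eBayes, voom with TMM factors, a replicate block and fits without single libraries.

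The 10 genes, the lists and the alternatives were chosen with earlier results of these data known. Named are the 10 genes and, of lists the results turn on, the 2 genes of highest and the 1 of lowest mean; others are said to be chosen after their values were seen. Where a symbol had 2 rows, the higher was kept. Promoter sequences are from RefSeq, build GRCr8, and were not used for the FPKM values.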

Additional observations from a re-analysis of the deposited data

Results flagged for a closer look

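In groups of 5, the highest or lowest library was set against the others by its gap to the nearest library as a share of the group's range. The critical value was 0.71, and 18 of 110 groups stood out. Chance gives about 5% only for independent, normally spread groups. List sums share genes with the single genes, and a gene above 0 in only 1 library of its group always stands out. The count therefore cannot be set against 5%. Of the 18, 2 concern the spermatogonial set. Kit stood at 3.001 FPKM in aged replicate 2, with a gap of 0.795 of the range. Sall4 stood at 0.5042 FPKM in young replicate 5 (0.819), a value from 25 fragments.

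Summed list levels stood apart in aged replicate 2 for ligands and retinoid genes (129.6 FPKM), Sertoli cells (164.4 FPKM), peritubular cells (309.1 FPKM), macrophages (422.9 FPKM), mast and other blood cells (8.793 FPKM) and endothelial cells (10.88 FPKM). In the young group the macrophage sum stood apart in replicate 5 (66.79 FPKM) and the partner gene sum in replicate 1 (578.4 FPKM). Single genes that stood apart in aged replicate 2 were Cd79a (1.626 FPKM), Hbb (6.562 FPKM), Clu (75.91 FPKM) and Vim (39.42 FPKM). The other 4 are genes at 0 in the remaining libraries of their group: Pdx1 at 0.04136 FPKM in young replicate 2, Fgf8 at 0.1936 FPKM and Klk1c2 at 0.1387 FPKM in aged replicate 4, and Cpa3 at 0.03599 FPKM in aged replicate 3.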

How the results depend on the processing

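Under all 20 alternatives 0 genes of the spermatogonial set passed the threshold or had an unadjusted p under 0.05 in limma or voom. Among the 20, median-of-ratios scaling gave the same values as the main fit, so it was no separate check. Over all genes the count was 0, except for 1 gene without young replicate 1 and 1 without young replicate 2, so the fits that leave out 1 library gave 0 to 1. The smallest unadjusted p of any tested gene of the set was 0.0522, for Sohlh2 without aged replicate 4. The direction held for 8 of the 10 genes in every fit that tested them. Uchl1 ranged from -0.0776 to 0.0766 when 1 library was left out, turning positive without young replicate 1 (0.02) or 5 or aged replicate 2 (0.01) or 3 (0.01), and Sall4 from -0.0788 to 0.00302, positive without young replicate 5. With a mean of at least 5 FPKM only Gfra1, Uchl1 and Dazl were tested.

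The age groups share replicate numbers 1 to 5, but nothing in the labels ties them, and same-numbered libraries did not deviate together (correlations -0.158 to 0.0541). With the replicate block 0 genes passed, 619 higher and 636 lower genes had an unadjusted p under 0.05, and the adjusted p was 0.610 for Kit, 0.733 for Dazl and 0.672 for Sohlh2; in this balanced design the block cannot move the differences themselves. Depth limits the low genes most: Sall4 had 11 to 25 and Zbtb16 6 to 34 fragments per library.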
